A study of Mus musculus with 14 samples.

Results

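The effect of abdominal surgery on MC-38 cells growing as lung tumours in wild-type (WT) mice was examined in 4 libraries, 2 from WT hosts without surgery and 2 from WT hosts with laparotomy, of the 14 RNA sequencing libraries of the series. MC-38 is a mouse colon cancer line, and a laparotomy is a surgical opening of the abdomen. The comparison was defined by the sample titles alone, with no measured value, and took in every gene. The series asks how neutrophil extracellular traps (NETs), webs of chromatin that neutrophils release, act on cancer cells after surgery.

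The control group is WT host, untreated. The second group is WT host with laparotomy on days 0 and 10. All tumour cells were MC-38 cells that express green fluorescent protein (GFP), collected by flow sorting on day 30, so both groups share the transplanted line, the label, the lung site and the sort. The 4 other tumour libraries served to estimate the spread and as a second setting of the same surgery: 2 from hosts without PAD4, the Padi4 enzyme that citrullinates histones during NET release, left untreated, and 2 from such hosts with laparotomy on the same days. They are called knockout (KO) hosts here. The tumour cells carry their own Padi4 in every group, and the genotype tag of all 8 tumour libraries reads WT. Culture libraries of the same line, 3 controls and 3 given NET chromatin, gave the level of each gene in cells without a host. Host strain, age and sex, the promoter that drives GFP, the number of animals behind a library and any pooling were not stated in the labels. It is also unknown if the libraries of a group are from different mice, and the p-values then rest on a spread between samples that may be technical only.

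Cells short of oxygen keep hypoxia-inducible factors (HIFs), which prolyl hydroxylases otherwise mark for destruction. HIFs bind short promoter motifs and switch on genes of glycolysis, iron uptake and histone demethylation. A different response, the unfolded protein response, raises chaperones and folding enzymes of the endoplasmic reticulum when its folding load grows, through factors that bind the endoplasmic reticulum stress element. Both responses are known from solid tumours, and they share some enzymes, such as the oxidase Ero1l.

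Total gene counts were 10.8 and 29.5 M in the WT control libraries and 22.9 and 31.3 M in the WT laparotomy libraries. The control libraries differed from each other more than the laparotomy libraries did: the SD of the log2 difference between replicates, over all genes compared, was 0.914 in control and 0.445 with laparotomy. Counts of replicates differed beyond counting noise, which does not show that they came from separate animals. The label of a colon cancer line was checked against 15 epithelial genes. Epcam, an epithelial adhesion protein, stood at 0.365 and 1.88 CPM (reads of a gene per 1 M counted reads) in control and at 0 and 0.126 CPM with laparotomy, and Cdh1, E-cadherin, did not exceed 0.168 CPM in any culture library. Epithelial markers were thus near 0 in the line itself, while Vim, the mesenchymal filament vimentin, stood at 2950 and 3166 CPM in control and at 3005 and 2982 CPM with laparotomy. GFP itself is not among the genes of the deposited tables.

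In the sorted tumour libraries of WT hosts, 3 genes were higher and 5 lower with laparotomy. These calls depended on the fit, and 0 genes passed with a pan-leukocyte covariate or a replicate block. Tfrc, the transferrin receptor that brings iron into cells, Ero1l, an oxidase that forms disulfide bonds in the endoplasmic reticulum, and Kdm3a, a histone demethylase and known HIF target, rose. Lama4, a laminin chain of basement membranes, S100a16, a calcium-binding protein, Crip1, a small LIM domain protein, Fcgr2b, the inhibitory Fc receptor, and Ecscr, named for endothelial cells, fell. These 8 of 14615 genes tested (0.0547%; 0.0205% higher and 0.0342% lower) passed an adjusted p of 0.05 in edgeR's quasi-likelihood test, each at an adjusted p of 0.0317. Without the adjustment, 1090 genes (7.46%) were higher and 1663 (11.4%) lower at a p below 0.05. DESeq2 on the same genes called 296 higher (2.03%) and 911 lower (6.23%), all 8 genes among them.

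Tfrc (chromosome 16, 32608920 to 32632794, plus strand, build GRCm38) stood at 249 and 276 CPM in the control libraries and at 671 and 664 CPM in the laparotomy libraries. Both laparotomy libraries lay above both controls, and close to each other. The log2 fold change was 1.35 ± 0.15 (SE), a 2.54-fold rise (edgeR adjusted p = 0.0317). In KO hosts Tfrc stood at 263 and 335 CPM without and 412 and 339 CPM with laparotomy.

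Ero1l (chromosome 14, 45283087 to 45318771, minus strand) stood at 229 and 203 CPM in control and at 553 and 449 CPM with laparotomy. The groups did not overlap, and the log2 fold change was 1.21 ± 0.13. Kdm3a (chromosome 6, 71588972 to 71632990, minus strand) stood at 85.2 and 86.3 CPM in control and at 163 and 152 CPM with laparotomy. The control libraries were nearly equal, the laparotomy libraries were both higher, and the log2 fold change was 0.87 ± 0.10. In KO hosts Kdm3a stood at 120 CPM in each control library and lower, at 94.6 and 99.5 CPM, with laparotomy. These 3 genes were also well expressed in culture, where the control means were 395 ± 7.85 CPM for Tfrc, 1086 ± 70.4 CPM for Ero1l and 215 ± 7.7 CPM for Kdm3a (SD, n = 3). NET chromatin raised all 3 in culture, with log2 fold changes of 0.74 ± 0.09 for Tfrc (edgeR adjusted p = 4.26e-06), 0.77 ± 0.10 for Ero1l (2.51e-05) and 0.84 ± 0.11 for Kdm3a (2.13e-05). Over all 11753 genes tested in culture, 26.3% were higher and 27.8% lower.

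Lama4 (chromosome 10, 38965515 to 39110188, plus strand) stood at 309 and 233 CPM in control and at 77.9 and 54.5 CPM with laparotomy. The laparotomy libraries were both far below the controls, and the log2 fold change was -2.03 ± 0.19. In KO hosts the order was the opposite, with 158 and 159 CPM in control and 295 and 314 CPM with laparotomy. S100a16 (chromosome 3, 90537254 to 90543151, plus strand) stood at 39.2 and 45.4 CPM in control and at 7.45 and 5.32 CPM with laparotomy. Its log2 fold change of -2.73 ± 0.28 came from groups well apart, and KO hosts also gave lower values with laparotomy (20.3 and 13.9 CPM) than without (38.2 and 55.0 CPM).

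Crip1 (chromosome 12, 113146316 to 113153879, plus strand) stood at 91.5 and 123 CPM in control and at 28.2 and 30.8 CPM with laparotomy, a log2 fold change of -1.86 ± 0.20. Fcgr2b (chromosome 1, 170958617 to 170976547, minus strand) stood at 33.5 and 42.9 CPM in control and at 12.4 and 10.9 CPM with laparotomy, a log2 fold change of -1.72 ± 0.18. Ecscr (chromosome 18, 35713086 to 35722356, minus strand) stood at 80.9 and 91.0 CPM in control and at 41.3 and 36.8 CPM with laparotomy, a log2 fold change of -1.14 ± 0.12. In each of the 3 the laparotomy libraries were close together and below both controls. Fcgr2b and Ecscr each overlap a gene on the other strand, whose reads the unstranded counts cannot separate. With the strand-specific counts their log2 fold changes were -1.72 and -1.14, each at an edgeR adjusted p of 0.0311.

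The 5 fallen genes were low or silent in cultured MC-38 cells: the highest culture library held 0.107 CPM of Lama4, 0.337 of S100a16, 0.367 of Crip1, 2.52 of Fcgr2b and 4.16 of Ecscr, which had at least 2.81 CPM in each. In tumours such transcripts can come from the cancer cells or from host cells in the sort, and in bulk RNA fewer cells of a type and less RNA per cell cannot be told apart.

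**Figure D1:**
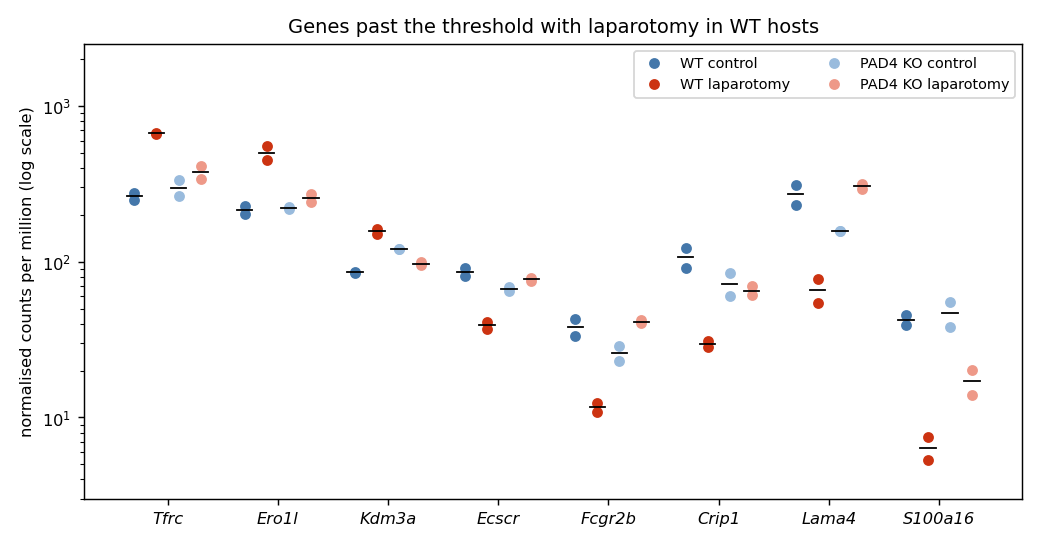
Normalised CPM on a log axis for the 8 genes past the threshold, with 1 point per tumour library and a bar at each group mean (n = 2). The WT laparotomy points lie above both WT control points for Tfrc, Ero1l and Kdm3a and below them for the 5 other genes, while in KO hosts Lama4 is higher with laparotomy (295 and 314 CPM) than without (158 and 159 CPM).

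Host-cell RNA was not even among the WT libraries. Pan-leukocyte markers (10 genes, among them Ptprc, Cd53 and Tyrobp) summed to 134 and 1021 CPM in control, to 96.9 and 67.9 CPM with laparotomy, and to at most 17.3 CPM in culture. Monocyte and macrophage markers summed to 528 and 2142 CPM in control and to 174 and 153 CPM with laparotomy, and lung epithelium markers to 161 and 899 against 19.1 and 29.4 CPM. Control replicate 2 was thus the highest, and the laparotomy libraries lay below both controls in these 3 sums. Of the tested markers, 9 of 10 pan-leukocyte, 16 of 17 monocyte and macrophage, 13 of 15 lung epithelium and 10 of 12 endothelial genes had an unadjusted p below 0.05 on the lower side, where all genes gave 11.4%. Without control replicate 2 the medians went from -2.73 to -0.70 for pan-leukocyte and from -2.38 to -1.29 for monocyte and macrophage markers. For lung epithelium markers they went from -4.87 to -3.12, and for endothelial markers from -3.57 to -2.03. Counts given below without a control replicate come from such fits, while the shares over all genes are those of the full fit. There Ecscr, one of the endothelial markers, passed the adjusted threshold and no other marker did.

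Other sums did not all follow that order. Neutrophil markers summed to 182 and 880 CPM in control and to 196 and 153 CPM with laparotomy, and T and NK cell markers to 8.31 and 134 against 42.7 and 36.8 CPM. For both, control replicate 1 was close to or below the laparotomy libraries, and without control replicate 2 the T and NK median turned from -0.81 to 2.72. Sums of dendritic cell markers were 107 and 559 against 48.6 and 48.1 CPM (45.2 to 54.3 CPM in culture), of B and plasma cell markers 35.0 and 141 against 15.8 and 16.8 CPM, and of endothelial markers 240 and 702 against 114 and 108 CPM. Fibroblast and pericyte markers, at 4684 and 3750 against 4339 and 3008 CPM, overlapped between the groups. Erythroid and platelet markers summed to 10.4 and 18.2 against 7.58 and 6.83 CPM and mesothelial markers to 14.4 and 21.3 against 27.9 and 25.9 CPM. In culture these sums were 17.2 to 21.4 CPM and 278 to 524 CPM. T and NK markers were mixed, with 3 of 10 tested above 0. Cd8a stood at 0.731 and 9.86 CPM in control and at 9.76 and 8.19 CPM with laparotomy. Cd4 stood at 1.10 and 6.10 against 6.84 and 6.93 CPM. Some other markers, picked by their values, were at 0 with laparotomy. Ncr1 of NK cells was at 0 in both libraries. Mpo and Ngp of neutrophils, Lamp3, Nkx2-1 and Scgb3a2 of lung epithelium and Nkg7 of T and NK cells were at 0 in replicate 1, and Retnlg and Ltf of neutrophils and Klrb1c of NK cells in replicate 2.

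The part of host-cell RNA in the 5 fallen genes was not tested. Within the control group, 4 were higher in replicate 2: Ecscr (80.9 and 91.0 CPM), Fcgr2b (33.5 and 42.9), Crip1 (91.5 and 123) and S100a16 (39.2 and 45.4). Lama4 was higher in replicate 1 (309 and 233 CPM). The marker sums were higher in replicate 2, pan-leukocyte markers at 134 and 1021 CPM, except that of fibroblasts and pericytes (4684 and 3750 CPM). With the mean log2 level of the pan-leukocyte markers as a covariate, 0 genes passed in edgeR, 1179 had an unadjusted p below 0.05, and all 8 kept their sign. Their log2 fold changes in that fit were -2.23 for Lama4, -2.40 for S100a16, -1.46 for Crip1, -1.39 for Fcgr2b, -0.98 for Ecscr, 1.54 for Tfrc, 1.13 for Ero1l and 0.89 for Kdm3a. Without control replicate 2, 4 genes were higher and 9 lower in edgeR, with 3 of the 8 among them and the other 5 of the same sign, while DESeq2 without that library called 146 higher and 204 lower, all 8 among them. The edgeR fit filtered anew and tested 15135 genes, and DESeq2 took the 14615 and gave 12348 an adjusted p.

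**Figure D2:**
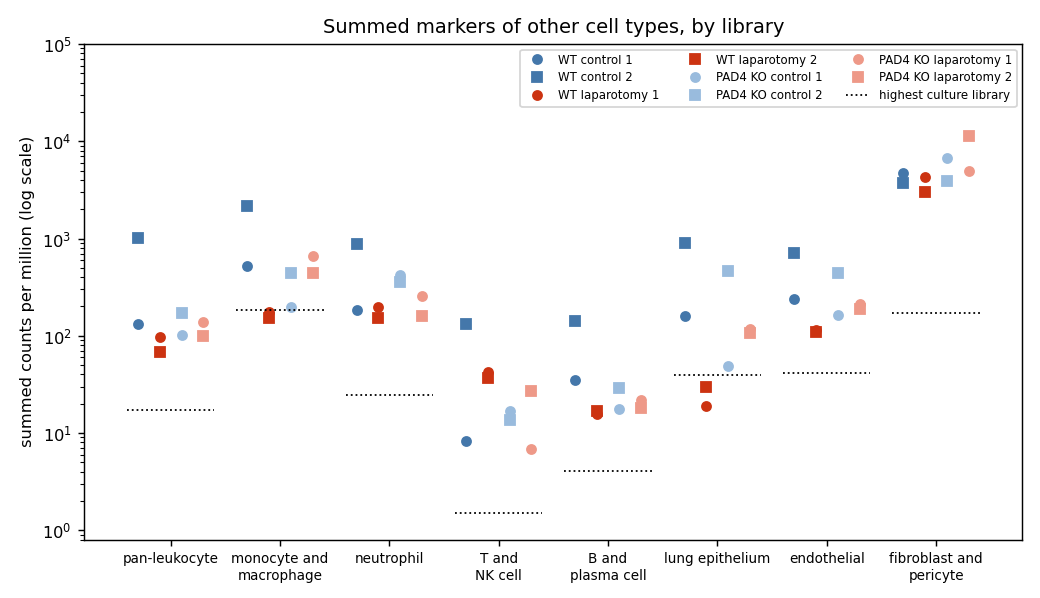
Summed CPM, on a log axis, of the markers of 8 other cell types in each of the 8 tumour libraries (circles for replicate 1, squares for replicate 2), with a dotted line at the highest of the 6 culture libraries. WT control replicate 2 is the highest tumour library for pan-leukocyte markers (1021 CPM) and lung epithelium markers (899 CPM), and the WT laparotomy libraries are the lowest for lung epithelium markers (19.1 and 29.4 CPM).

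Genes were then grouped by their level in culture, which the laparotomy contrast does not use. Among 1981 genes under 0.5 CPM in every culture library (13.6% of those tested), the median log2 fold change was -1.57, 625 were lower and 29 higher at an unadjusted p below 0.05, and 3 passed the adjusted threshold, all lower. Without control replicate 2 that median was -0.80, and in KO hosts it was -0.10. Among 8520 genes that reached 10 CPM in each of the 6 culture libraries (58.3%), the median was 0.08, 979 were higher and 465 lower at an unadjusted p below 0.05, and the 3 that passed were higher. Between these limits, 4114 genes had a median of -0.15, with 2 that passed, both lower. The median over all genes was -0.01. All 3 risen genes thus belonged to the class that cultured MC-38 cells express, and none of the 5 fallen genes did. Genes silent in culture made up 0.678 and 1.40% of the counts in control and 0.400 and 0.330% with laparotomy.

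**Figure D3:**
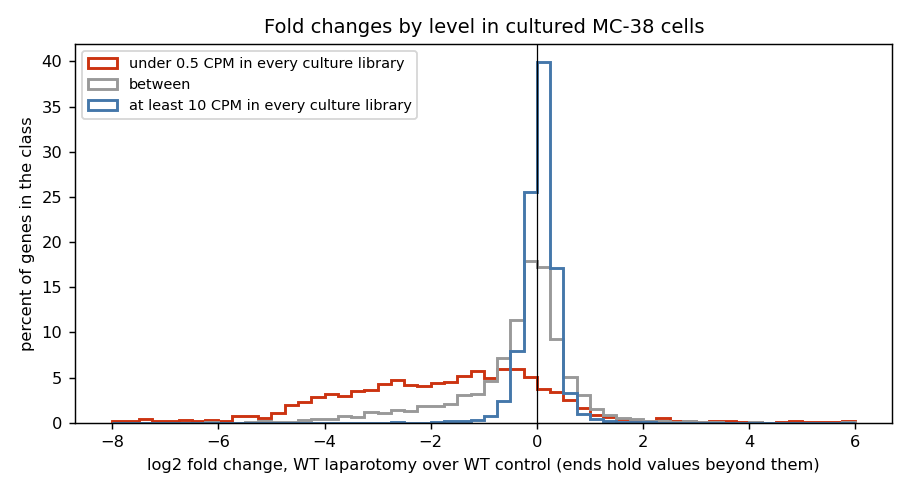
Distribution of the log2 fold change (WT laparotomy over WT control) in 3 classes of genes set by their level in the 6 culture libraries, as a percentage of each class. Genes under 0.5 CPM in every culture library spread far to the left (median -1.57), and genes that reached 10 CPM in each gather at 0 (median 0.08).

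To set aside genes that cultured cells hardly express, the genes that reached 10 CPM in each culture library were also fitted alone, with no filter on tumour counts (8530 genes, of which 8520 had passed that filter) and with scaling factors from these genes. In that edgeR fit 31 genes were higher (0.363%) and 36 lower (0.422%), with 659 and 789 at an unadjusted p below 0.05. In the main fit the 8520 had 979 higher and 465 lower at that level, and small list medians moved with the scaling. Tfrc, Ero1l and Kdm3a were the only ones of the 8 genes past the main threshold that were in the narrower fit, and all 3 passed. Calls from this narrower fit are named below as such.

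Promoters of genes that carry the results are shown before the pathway values, from 250 bases before to 50 bases after the RefSeq start of transcription (build GRCm38.p6, sequence 5′ to 3′ on the strand of the gene). For Tfrc, Ero1l and Kdm3a, which rose, capitals mark the HIF core motifs ACGTG and GCGTG on either strand, which read CACGT and CACGC on the reverse strand. ACGTG is also part of the E-box CACGTG. Creld2 and Hspa5 are shown for the unfolded protein response, and there capitals mark CCACG on either strand and, where present, the other end of the endoplasmic reticulum stress element. That element is a CCAAT box followed, after a spacer of fixed length, by the first motif. The windows are chr16:32608646-32608945 (plus strand) for Tfrc, chr14:45318523-45318822 (minus strand) for Ero1l, listed there as Ero1a, and chr6:71632868-71633167 (minus strand) for Kdm3a. For the other two genes they are chr15:88819396-88819695 (plus strand) for Creld2 and chr2:34771840-34772139 (plus strand) for Hspa5.
Tfrc: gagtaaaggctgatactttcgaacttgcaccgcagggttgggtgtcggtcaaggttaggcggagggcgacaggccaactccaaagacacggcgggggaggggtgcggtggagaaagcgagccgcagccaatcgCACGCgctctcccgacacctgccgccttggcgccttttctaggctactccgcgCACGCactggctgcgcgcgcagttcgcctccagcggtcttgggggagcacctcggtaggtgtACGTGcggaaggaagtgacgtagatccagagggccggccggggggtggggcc
Ero1l: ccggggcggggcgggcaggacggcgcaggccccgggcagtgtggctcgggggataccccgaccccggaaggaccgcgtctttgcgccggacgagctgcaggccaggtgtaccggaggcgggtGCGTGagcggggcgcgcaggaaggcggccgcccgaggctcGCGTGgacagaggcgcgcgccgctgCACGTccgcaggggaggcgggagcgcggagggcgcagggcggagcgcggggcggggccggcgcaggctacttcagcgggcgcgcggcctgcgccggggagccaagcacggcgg
Kdm3a: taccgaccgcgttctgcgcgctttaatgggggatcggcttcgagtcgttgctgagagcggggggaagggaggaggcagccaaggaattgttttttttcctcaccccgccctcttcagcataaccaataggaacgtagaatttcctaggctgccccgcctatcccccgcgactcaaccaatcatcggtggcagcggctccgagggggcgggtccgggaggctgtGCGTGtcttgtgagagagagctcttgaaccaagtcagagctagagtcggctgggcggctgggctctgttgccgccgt
Creld2: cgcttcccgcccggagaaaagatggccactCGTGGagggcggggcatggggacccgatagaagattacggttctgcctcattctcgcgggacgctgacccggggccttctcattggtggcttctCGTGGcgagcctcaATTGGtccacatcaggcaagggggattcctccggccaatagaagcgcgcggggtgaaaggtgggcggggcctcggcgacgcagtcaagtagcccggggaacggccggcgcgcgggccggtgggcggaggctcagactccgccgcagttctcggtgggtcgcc
Hspa5: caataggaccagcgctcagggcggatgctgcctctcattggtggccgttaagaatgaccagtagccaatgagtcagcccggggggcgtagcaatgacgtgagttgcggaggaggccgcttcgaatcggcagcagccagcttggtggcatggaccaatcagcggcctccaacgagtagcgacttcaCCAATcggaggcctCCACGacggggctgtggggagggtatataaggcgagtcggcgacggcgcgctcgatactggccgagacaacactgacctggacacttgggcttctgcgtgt
ACGTG or GCGTG occurred in 17 of 22 promoters (77.3%) of the 15 hypoxia genes with an entry, and in 43.8% of all 32851 promoters of the table. The share was similar in promoters of the unfolded protein genes, 12 of 16 (75%), so these motifs did not set the lists apart. CCACG occurred in 14 of 16 promoters (87.5%) of the unfolded protein genes with an entry and in 13 of 22 hypoxia promoters (59.1%), against 32.8% of all. The full stress element occurred in 8 of these 16 promoters (50%), in 0 of the 22 hypoxia promoters and in 39 of all promoters (0.119%). These matches describe letters in a window and do not show binding.

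Hypoxia genes were higher with laparotomy. Of 20 tested, 17 lay above 0, and the median log2 fold change was 0.72 (-0.01 over all genes). At an unadjusted p below 0.05, 11 were higher and 0 lower (7.46 and 11.4% over all genes). Ero1l and Kdm3a passed over all genes, and DESeq2 called 10. Both genes are among the 11 higher ones, and the list was chosen with earlier results of these data known. In the fit of genes expressed in culture 4 of 18 rose: Ero1l, Kdm3a, Bnip3, a mitophagy receptor, and Ddit4, an inhibitor of mTORC1. In 16 of the 20 the laparotomy libraries both lay above both controls, where 29.2% of all genes did so.

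Bnip3 stood at 129 and 120 CPM in control and at 331 and 247 CPM with laparotomy (log2 fold change 1.22 ± 0.21, edgeR adjusted p = 0.0859 over all genes and 0.0407 among genes expressed in culture). Ddit4 stood at 172 and 198 CPM in control and at 360 and 311 CPM with laparotomy (0.86 ± 0.12, adjusted p = 0.0555 and 0.0407 in the same edgeR fits). Adm, the vasodilator adrenomedullin, stood at 1.64 and 4.35 CPM in control and at 19.3 and 13.7 CPM with laparotomy (2.42 ± 0.52, edgeR adjusted p = 0.135). All 3 were higher in both laparotomy libraries. Vegfa, the vascular growth factor and a classic HIF target, overlapped between the groups, at 258 and 223 CPM in control and 265 and 243 CPM with laparotomy, and the collagen hydroxylases P4ha1 and P4ha2 had log2 fold changes of -0.23 and -0.21. The list was thus not uniform. Its median was 0.87 without control replicate 2, 0.53 without control replicate 1, 0.32 with laparotomy in KO hosts and 0.37 with NET chromatin in culture, where 14 of 19 tested genes were higher in edgeR.

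The regulators of the pathway gave mixed values. The prolyl hydroxylases Egln1 (107 and 99.9 CPM in control, 192 and 161 CPM with laparotomy) and Egln3 (11.2 and 8.21 against 20.7 and 17.0 CPM), which are HIF targets themselves, had log2 fold changes of 0.77 ± 0.20 and 0.97 ± 0.25 and edgeR adjusted p-values of 0.138 and 0.142. Hif1a stood at 671 and 550 CPM in control and at 505 and 454 CPM with laparotomy (-0.35 ± 0.17). Epas1, the HIF-2 subunit known from endothelial cells, stood at 54.0 and 305 CPM in control and at 4.92 and 12.2 CPM with laparotomy, and like the endothelial marker sum it was highest in control replicate 2. The median of the 8 regulators was 0.12, and none passed the adjusted threshold. At an unadjusted p below 0.05, 2 were higher and 1 lower (7.46 and 11.4% over all genes).

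Glycolysis, which HIF-1 feeds, had a median of 0.26 over 21 genes, with 16 above 0. At an unadjusted p below 0.05, 8 were higher and 1 lower, where 7.46% of all genes were higher and 11.4% lower. DESeq2 called 4 higher and 1 lower. The glycolysis median was 0.18 without control replicate 2 and 0.31 without control replicate 1. It was 0.20 among the 17 glycolysis genes in the fit of genes expressed in culture. Hk2, the hexokinase that traps glucose, stood at 136 and 138 CPM in control and at 245 and 241 CPM with laparotomy. The groups were far apart beside their spread, the log2 fold change was 0.82 ± 0.11, and the edgeR adjusted p was 0.054 over all genes and 0.0257 among genes expressed in culture. The glucose transporter Slc2a1 stood at 167 and 205 against 349 and 298 CPM, with a log2 fold change of 0.80 ± 0.21 (edgeR adjusted p = 0.143). Pfkfb4, a regulator of glycolytic flux, went the other way, at 20.7 and 31.7 against 10.5 and 12.6 CPM (-1.19 ± 0.34). Eno1 has a near-identical copy in the tables, and its value, under 0.6 CPM in all 4 libraries, is uncertain. Of 10 tested angiogenic factors 0 were higher and 3 lower at an unadjusted p below 0.05 (median -0.18, but -0.39 without control replicate 2 and 0.01 without control replicate 1).

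Other iron genes differed from Tfrc. Of 17 tested the median was -0.10 (0.04 without control replicate 2), 7 lay above 0, and Tfrc alone passed. Slc25a37, the mitochondrial iron importer, had a log2 fold change of 0.59 ± 0.14 (135 and 155 against 221 and 217 CPM), and Slc39a14, a zinc and iron importer, of -0.67 ± 0.16 (255 and 266 against 169 and 160 CPM). The ferritin chains Fth1 and Ftl1 both stood at -0.10, and Ireb2 and Aco1, the proteins that stabilise the Tfrc message when iron is short, at 0.08 and 0.07.

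Genes of the unfolded protein response lay lower with laparotomy. All 18 log2 fold changes were below 0 (median -0.43). At an unadjusted p below 0.05, 12 were lower and 0 higher (11.4 and 7.46% over all genes). DESeq2 called 11 lower, where it called 6.23% of all genes lower. In 16 of the 18 both laparotomy libraries lay below both controls, where 28.1% of all genes did so. None passed in edgeR over all 14615 genes, and among genes expressed in culture Creld2 and Manf, secreted proteins of the endoplasmic reticulum stress response, fell.

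Creld2 (chromosome 15, 88819646 to 88826683, plus strand) stood at 173 and 130 CPM in control and at 77.9 and 82.5 CPM with laparotomy. The laparotomy libraries were both lower, the log2 fold change was -0.92 ± 0.14, and the edgeR adjusted p was 0.0741 over all genes and 0.0257 among genes expressed in culture. In KO hosts Creld2 stood at 104 and 101 CPM in control and at 147 and 148 CPM with laparotomy. Manf stood at 231 and 177 CPM in control and at 125 and 130 CPM with laparotomy (-0.68 ± 0.13, edgeR adjusted p = 0.12 and 0.0407).

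The main chaperones had the same order of libraries. Hspa5 (BiP), the master chaperone that binds the stress sensors, stood at 3284 and 2765 CPM in control and at 2200 and 2128 CPM with laparotomy, a log2 fold change of -0.48 ± 0.11 (edgeR adjusted p = 0.135). Pdia3, a disulfide isomerase that works with calreticulin, stood at -0.55 ± 0.13, Calr, calreticulin itself, at -0.44 ± 0.11, and Xbp1, the transcription factor of the response, at -0.44 ± 0.12. Herpud1 and Canx, at -0.07 and -0.09, were the smallest.

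The median of this list was -0.50 without control replicate 2 and nearer 0, at -0.26, without control replicate 1. In KO hosts the median with laparotomy was 0.08. NET chromatin in culture gave the opposite sign to laparotomy in WT hosts: 15 of the 18 were higher and 2 lower in edgeR, with a median of 0.51 and a log2 fold change of 1.29 ± 0.07 for Hspa5 (adjusted p = 6.35e-10). Ero1l, an enzyme of the same compartment, rose in both settings.

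The integrated stress response shares a sensor with the unfolded protein response and acts through Atf4. It lay on the other side of 0, with 15 of 17 genes above 0. The median was 0.31, and 0.25 among the 16 genes in the fit of genes expressed in culture. At an unadjusted p below 0.05, 4 of the 17 were higher and 0 lower (7.46 and 11.4% over all genes). The median was 0.21 with 1 gene higher without control replicate 2, and 0.46 without control replicate 1. The 4 were Vldlr, a lipoprotein receptor, Mthfd2 of folate metabolism, and Phgdh and Psat1 of serine synthesis. Vldlr stood at 133 and 98.2 CPM in control and at 236 and 215 CPM with laparotomy (0.97 ± 0.17, edgeR adjusted p = 0.0858 over all genes and 0.0407 among genes expressed in culture). Atf4 itself stood at 0.17 ± 0.11 and Ddit3, the death factor CHOP, at 0.13 ± 0.14. Heat shock genes had a median of -0.10 (-0.16 without control replicate 2 and 0.03 without control replicate 1, with 1 higher and 1 lower of 13 at an unadjusted p below 0.05) and NRF2 genes of -0.07 (-0.11 and -0.02, with 2 and 1 of 17).

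**Figure D4:**
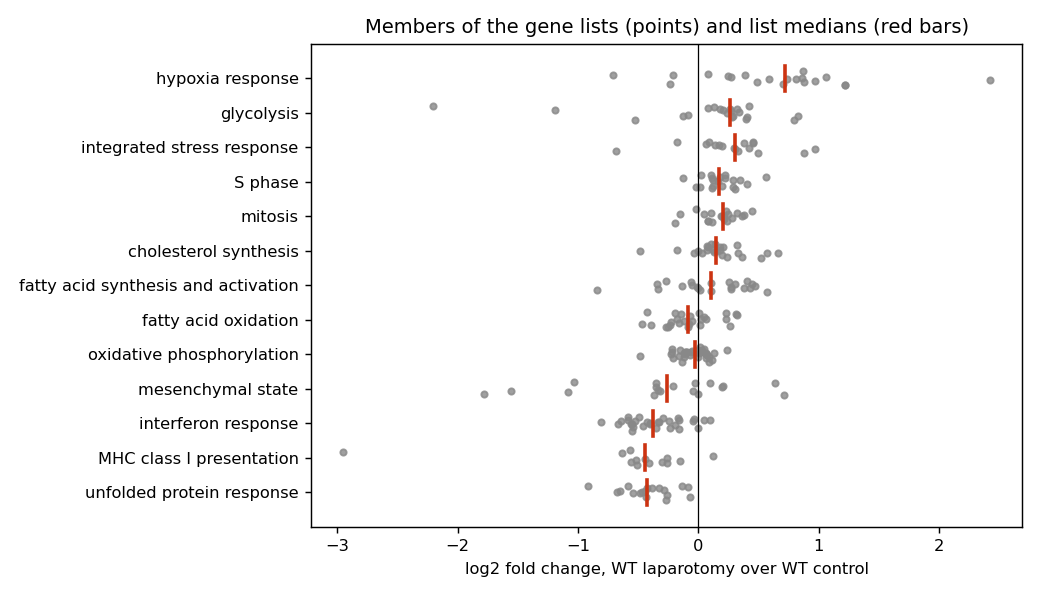
Log2 fold change (WT laparotomy over WT control) of each tested gene of 13 lists, with 1 point per gene and a red bar at the list median. The hypoxia bar stands at 0.72 with 17 of 20 points above 0, and all 18 points of the unfolded protein response lie below 0.

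Interferon-stimulated genes and antigen presentation lay lower. Of 30 interferon genes 28 were below 0, and the median was -0.37. At an unadjusted p below 0.05, 15 were lower and 0 higher (11.4 and 7.46% over all genes). Of 13 MHC class I genes 9 were lower at that level (median -0.44) and DESeq2 called 8. None passed in edgeR over all genes, and among genes expressed in culture Gbp3, a guanylate-binding protein, H2-D1, a class I heavy chain, and Psmb8, an immunoproteasome subunit, fell. Psmb8 stood at 303 and 285 against 200 and 196 CPM (-0.57 ± 0.11). Both laparotomy libraries lay below both controls. The interferon median was -0.37 in KO hosts too, and in WT hosts it was -0.56 without control replicate 2 and -0.21 without control replicate 1. Leukocytes also express these genes, and the pan-leukocyte sums given above were lower with laparotomy. Their part in these values was not tested.

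Lipid genes, the subject of much of the series, gave small values. Cholesterol synthesis had a median of 0.15, with 20 of 24 above 0. At an unadjusted p below 0.05, 5 were higher and 1 lower (7.46 and 11.4% over all genes). Fatty acid synthesis and activation had a median of 0.10, with 6 and 3 of 22. Fatty acid oxidation had -0.08 with 0 and 0 of 26, fatty acid uptake and lipid droplets -0.20 with 2 and 3 of 22, and sterol uptake and efflux -0.26 with 2 and 3 of 14. None of their genes passed over all genes. Leaving out control replicate 2 gave medians of 0.10 for cholesterol synthesis, -0.04 for oxidation, -0.03 for uptake and -0.14 for sterol uptake and efflux, and without control replicate 1 the last was -0.42. In the fit of genes expressed in culture the medians were 0.07 for cholesterol synthesis and 0.11 for fatty acid synthesis and activation. They were -0.15 for oxidation, -0.21 for uptake and lipid droplets and -0.17 for sterol uptake and efflux. Acsl4, an activator of polyunsaturated fatty acids, stood at 482 and 446 against 272 and 246 CPM (-0.84 ± 0.19, edgeR adjusted p = 0.135).

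Eicosanoid enzymes gave values in both directions. The median over 16 genes was -1.43, with 2 higher and 8 lower at an unadjusted p below 0.05 (7.46 and 11.4% over all genes). Ptgs2, the inducible cyclooxygenase, stood at 292 and 268 CPM in control and at 664 and 502 CPM with laparotomy (1.06 ± 0.38, edgeR adjusted p = 0.209). Alox5ap, the partner of 5-lipoxygenase, stood at 122 and 168 against 51.3 and 36.1 CPM (-1.73 ± 0.26, edgeR adjusted p = 0.0715), and Ptgs1, the constitutive cyclooxygenase, at 58.5 and 26.1 against 14.3 and 8.60 CPM (-1.88 ± 0.43). With control replicate 2 left out it was -0.74 with 1 higher and 3 lower, and among the 6 genes expressed in culture it was 0.22 with 1 higher and 0 lower. The pan-leukocyte and macrophage sums were lower with laparotomy too, and their part was not tested. Oxidative phosphorylation had a median of -0.03 with 0 higher and 1 lower of 34 (-0.06 without control replicate 2 and -0.05 without control replicate 1).

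Matrix and adhesion lists gave medians below 0. Beside Lama4, Nid1, a nidogen that links laminin to collagen IV, stood at 19.3 and 25.2 CPM in control and at 5.40 and 3.97 CPM with laparotomy (-2.25 ± 0.31, edgeR adjusted p = 0.0555). The basement membrane list had a median of -0.23. At an unadjusted p below 0.05, 6 of 18 were lower and 0 higher (11.4 and 7.46% over all genes). Integrins had a median of -1.01 with 6 lower and 1 higher of 15, and the S100 and Crip list -0.64 with 6 lower of 10. Lama4 is among the lower basement membrane genes, and S100a16 and Crip1 are among the lower genes of the S100 and Crip list. The lists were chosen with earlier results known, so these counts are no independent support. The medians were -0.15, -0.73 and -0.56 without control replicate 2. Among genes expressed in culture they were 0.09 with 0 lower of 11, -0.43 with 3 lower of 8, and -0.33 with 4 lower of 7. The endothelial and leukocyte sums were lower with laparotomy as well, and their part was not tested. The laminin chains Lamb1 and Lamc1, which cultured cells express, stood at -0.25 and -0.22, and Lama5 at 0.95 ± 0.73. Itga3, a laminin receptor chain, was the higher integrin, at 13.4 and 18.2 against 32.5 and 34.3 CPM (1.07 ± 0.24). All 6 Fc receptor genes were below 0 (median -2.25) and 5, Fcgr2b among them, were lower at an unadjusted p below 0.05. Their median was -1.45, with 4 lower, without control replicate 2. Leukocytes express Fc receptors, none was among the genes expressed in culture, and the part of the lower leukocyte sums was not tested. Mesenchymal genes had a median of -0.26 (0 higher and 4 lower of 18), and -0.13 and -0.09 without control replicates 2 and 1. Epithelial genes had a median of -2.46 (0 and 7 of 12). Without control replicate 2, 1 of them was lower (median -1.89), and the lung epithelium sum was lower with laparotomy too.

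Proliferation and signalling lists gave medians closer to 0. S phase genes had a median of 0.17 with 3 of 20 higher, and mitosis genes 0.20 with 4 of 20 higher. Neither had a lower gene at an unadjusted p below 0.05, where 7.46% of all genes were higher and 11.4% lower. In the fit of genes expressed in culture the medians were 0.10 and 0.13, with 2 of 19 and 1 of 20 higher. Without control replicate 2 the medians were 0.12 and 0.03, with 0 higher in either, and without control replicate 1 they were 0.26 and 0.33. Immediate early genes had a median of -0.11 (3 higher and 1 lower of 20), which turned to 0.35 with 6 higher and 0 lower without control replicate 2 and was -0.42 without control replicate 1. Within them Myc, a driver of growth, stood at 85.8 and 104 CPM in control and at 164 and 176 CPM with laparotomy. Its log2 fold change was 0.84 ± 0.13, with an edgeR adjusted p of 0.0715 over all genes and 0.0407 among genes expressed in culture. Median values were -0.49 for chemokines and growth factors (2 higher and 8 lower of 19), -0.04 for NF-kB subunits and inhibitors (0 and 2 of 13) and -0.26 for p53 targets (0 and 4 of 15). Without control replicate 2 they were -0.38, 0.02 and 0.08, so the last pair changed sign. Among the 7 chemokines and growth factors expressed in culture the median was 0.51, with 2 higher and 2 lower at an unadjusted p below 0.05. The pan-leukocyte sum was lower with laparotomy, and its part was not tested.

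Genes next to the threshold were named by their p. On the higher side Ankrd1, a target of YAP, stood at 29.1 and 24.6 CPM in control and at 92.2 and 103 CPM with laparotomy (1.87 ± 0.22, edgeR adjusted p = 0.0524). Odc1, the first enzyme of polyamine synthesis, stood at 144 and 146 against 284 and 264 CPM (0.92 ± 0.11, edgeR adjusted p = 0.054), and Ogt, which attaches GlcNAc to proteins, at 205 and 215 against 413 and 353 CPM (0.87 ± 0.11, edgeR adjusted p = 0.054). All 3 rose among genes expressed in culture. Slc14a1, a urea transporter, stood at 0.731 and 2.04 against 33.9 and 21.4 CPM (4.22 ± 0.55, edgeR adjusted p = 0.054). On the lower side Igfbp6, which binds insulin-like growth factors, stood at 167 and 144 against 82.1 and 82.3 CPM (-0.92 ± 0.12, edgeR adjusted p = 0.054), and it fell among genes expressed in culture, as did Clu, the secreted chaperone clusterin, and Mef2c, a transcription factor. Lgals7, Apod, Gstp2, Mef2c and Rhoj had log2 fold changes between -2.52 and -1.39.

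The peptidylarginine deiminases, the family of PAD4, had 3 tested members. All were higher at an unadjusted p below 0.05 (7.46% over all genes), and none passed the adjusted threshold in edgeR. Padi3 stood at 0.274 and 0.758 CPM in control and at 6.23 and 5.70 CPM with laparotomy, and Padi2 at 1.46 and 8.90 against 17.7 and 15.3 CPM. Padi4 stood at 3.20 and 7.48 against 30.7 and 30.3 CPM (2.48 ± 0.52, edgeR adjusted p = 0.134, DESeq2 adjusted p = 0.000148). In all 3 both laparotomy libraries were higher. Padi4 was at 67.1 ± 4.3 CPM in the control cultures (SD, n = 3), above every tumour library.

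Whether the effect of laparotomy differed between WT and KO hosts was tested directly, as the KO effect minus the WT effect in the same edgeR fit (99 of 14615 genes, 0.677%, passed). Of the 8 genes, Lama4, Fcgr2b, Ecscr, Crip1 and Kdm3a differed. The difference was 2.97 ± 0.27 for Lama4 (adjusted p = 0.0123), 2.38 ± 0.25 for Fcgr2b (0.0191), 1.35 ± 0.17 for Ecscr (0.0201), 1.72 ± 0.28 for Crip1 (0.0459) and -1.18 ± 0.14 for Kdm3a (0.0201). For Ero1l (log2 fold changes of 1.21 in WT and 0.21 in KO hosts, adjusted p = 0.0617), Tfrc (-1.02 ± 0.21, 0.0718) and S100a16 (1.29 ± 0.37, 0.133) the difference did not pass. Creld2 also differed (1.44 ± 0.20, edgeR adjusted p = 0.0277). The genes were chosen by their WT effect, which is part of the difference, so these counts are no independent support.

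For several genes the KO control libraries lay near the WT laparotomy libraries. Ankrd1 stood at 90.0 and 108 CPM in KO controls and at 40.6 and 25.2 CPM in KO hosts with laparotomy, and Igfbp6 at 79.0 and 69.4 CPM against 162 and 149 CPM. Both passed in KO hosts in edgeR (adjusted p = 0.0322 and 0.0211), where 0.52% of genes did, in the direction opposite to WT hosts. Slc14a1, too, was higher in KO controls, with 14.7 CPM in replicate 1, than with laparotomy, at 1.95 and 2.97 CPM.

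**Figure D5:**
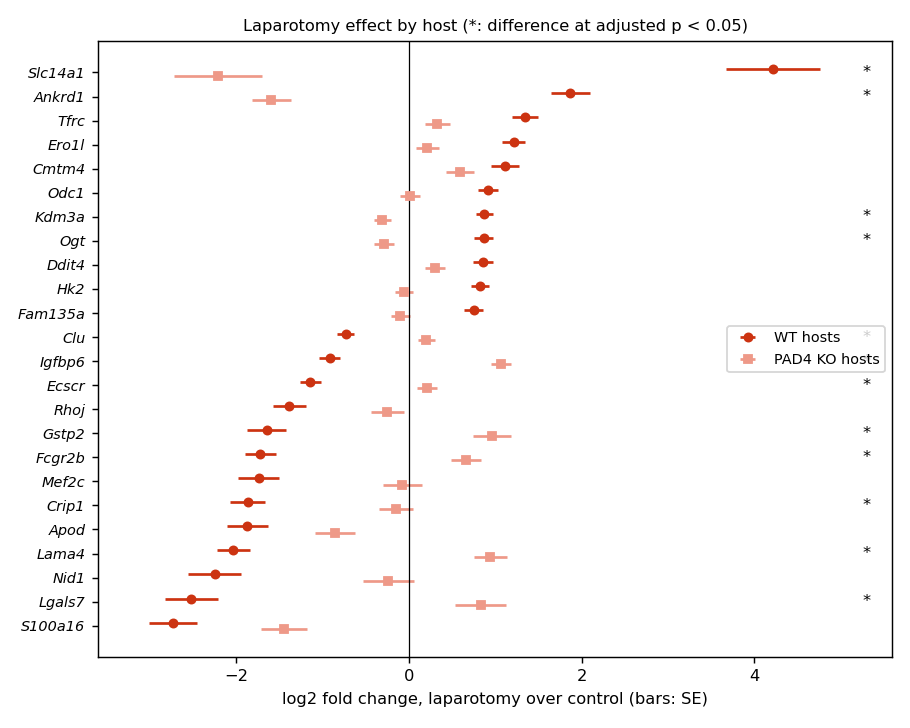
Log2 fold change with laparotomy (± SE) in WT hosts (circles) and KO hosts (squares) for the 8 genes past the threshold in WT hosts and the 16 next by p. A star marks genes whose difference between hosts passed an adjusted p of 0.05; Lama4, at -2.03 in WT and 0.94 in KO hosts, is one of them, and Ero1l, at 1.21 and 0.21, is not.

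Library measures were compared between the WT groups with exact two-sided permutation tests, for which 2 against 2 libraries cannot give a p below 0.333. Multimapping reads were 6.79% in each control library and 6.14 and 6.33% with laparotomy. Reads outside counted genes were 13.2 and 12.3% against 13.4 and 14.6%, and unmapped reads 5.90 and 7.80% against 10.3 and 7.05%. Sample sheet numbers in the deposited names are 3 and 4 for the controls and 4 and 5 for the laparotomy libraries. Number 4 occurs in both groups, and the labels do not name a sequencing run.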

How the data were processed

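The authors deposited read counts per gene for each library. The submitters' processing notes name mm10 as the build and STAR and Trimmomatic as tools, with no versions. The annotation is not given in the sources used here. The unstranded count column of 24411 genes was used. The 4 summary lines, which name no gene, stayed out of totals and tests. Counts of the 8 tumour libraries were fitted in 4 groups with edgeR 4.0.16 in R 4.3.3 (filterByExpr, TMM, robust quasi-likelihood fit, 4 residual degrees of freedom, common biological coefficient of variation 0.278), with Benjamini-Hochberg adjustment over 14615 genes. Levels are CPM with TMM factors. Standard errors come from the quasi-likelihood F statistic. Culture libraries were fitted apart. DESeq2 1.42.0 was an alternative.

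The comparison, the 43 gene lists (662 of 665 genes matched) and the rule for named genes were chosen with earlier results of these data known. The rule took every gene past the threshold, the 8 higher and 8 lower genes with the smallest p among the rest and the 6 largest log2 fold changes in each direction at an unadjusted p below 0.05. Both picks were limited to non-overlapping groups and a mean level from 5 CPM upwards, and left out predicted genes. It also took the 2 genes with the smallest p in each list, and Padi4. Other list members are named as examples chosen after their values were seen. Coordinates are from GENCODE (GRCm38), with 108 of 108 named genes matched. Values of some list members are not reported here.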

Additional observations from a re-analysis of the deposited data

Results flagged for a closer look

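The effect of laparotomy differed between WT and KO hosts for 17 of the named genes at an adjusted p below 0.05 in edgeR (0.677% of all genes tested), given here as the log2 effect in KO hosts minus that in WT hosts. The genes were picked by their WT effect, which is part of the difference. Without WT laparotomy replicate 1 the difference no longer passed for 16 of the 17, and without replicate 2 for all 17. The difference was positive for Ptgs1 (5.45), Lgals7 (3.35), Lama4 (2.97), Alox5ap (2.83), Gstp2 (2.61), Fcgr2b (2.38), Igfbp6 (1.99), Crip1 (1.72), Creld2 (1.44), Fas (1.40), Ecscr (1.35) and Clu (0.93). It was negative for Slc14a1 (-6.42), Ankrd1 (-3.46), Myc (-1.40), Kdm3a (-1.18) and Ogt (-1.16). Ptgs1 stood at 4.75 and 6.07 CPM in KO controls and at 51.2 and 77.2 CPM in KO hosts with laparotomy, where it passed in edgeR (adjusted p = 0.0322). Myc stood at 241 and 207 CPM in KO controls, above all 4 WT host libraries. Fas, the death receptor, stood at 32.5 and 38.3 CPM in WT controls and at 20.9 and 19.2 CPM with laparotomy, and at 28.2 and 30.6 against 39.8 and 48.2 CPM in KO hosts.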

How the results depend on the processing

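All 8 genes kept their sign under each of the 14 settings in which they were tested. Genes higher and lower numbered 5 and 8 with RLE size factors, 5 and 7 with library totals, 296 and 911 in DESeq2, 67 and 99 with no filter on low counts, 5 and 9 with the 4 WT host libraries alone (2 of the 8 among them), 4 and 5 with the strand-specific column, 31 and 36 among genes expressed in culture, 146 and 204 in DESeq2 without WT control replicate 2 (chosen after seeing the data), and 0 and 0 with the pan-leukocyte covariate. Leaving out 1 library gave 0 to 78 higher and 0 to 434 lower: 78 and 434 without WT control replicate 1, 4 and 9 without WT control replicate 2, and 0 and 0 (1074 and 1305 at an unadjusted p below 0.05) without either laparotomy library, which leaves a lone sample assumed to vary like the other groups. With a replicate block 0 and 0 passed (2511 unadjusted, lowest adjusted p 0.0813). The labels do not say whether equal replicate numbers share an animal or a day. Correlations of the replicate deviations between groups were -0.122 to 0.357, and 0.054 between the WT groups. Of the named genes, Ddx3y (0.41) and Egr3 (0.14) reversed with the pan-leukocyte covariate; the cause was not tested. Other values of named genes kept their side of the threshold in 1157 cases, gained it in 250 and lost it in 43. The differences between hosts lost their call in 45 of 210 cases over all settings, 6 of them with the pan-leukocyte covariate and 4 with the replicate block. With 2 libraries a group and 4 residual degrees of freedom, small differences were not detectable.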

Other observations

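Genes of lymphocyte receptor rearrangement stood higher in both WT laparotomy libraries, values noticed after the data were seen. Rag1, a subunit of the recombinase, had 6 and 8 counts in control and 547 and 523 with laparotomy (log2 fold change 5.75 ± 1.30, edgeR adjusted p = 0.136). Dntt, which adds bases at the joins, had 1 and 0 against 220 and 244 counts, and Rag2, the partner of Rag1, 0 and 0 against 16 and 17. Cd8a had 8 and 299 counts in control and 224 and 260 with laparotomy, and Ptcra, the pre-T receptor chain, at most 3 in any of the 4. Rag1 had 134 and 95 counts in KO controls, 4 and 97 in KO hosts with laparotomy, and 0 over the 6 culture libraries.

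Xist, the X-inactivation transcript, stood at 37.7 and 6.07 CPM in WT control libraries and was higher with laparotomy, at 53.8 CPM in replicate 2 and above that in replicate 1, and Ddx3y, a Y-linked gene, at 2.83 and 28.4 against 1.87 and 2.11 CPM. No culture library exceeded 1.22 CPM of Xist or 0.168 CPM of Ddx3y. Host sex is not given in the sources used here.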
